A study of Rattus norvegicus with 6 samples.

Results

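The genes described here are 10 members of the system that cuts the extracellular matrix and holds that cutting in check. They were taken by name from the 30957 genes of the table and comprise 3 tissue inhibitors of metalloproteinases (Timp1, Timp2 and Timp3), 4 matrix metalloproteinases (Mmp2, Mmp14, Mmp15 and Mmp19) and 3 ADAMTS proteases (Adamts1, Adamts5 and Adamts7). RNA was sequenced from the livers of 3 t-PBS and 3 t-DHEA rats, out of 6 recipients per group. All were female Sprague Dawley rats bought at 3 weeks of age, and all first drank an antibiotic cocktail in 3 courses of 7 days separated by 2 days of plain water, which reduces the gut flora but does not make an animal germ-free. Each rat then received donor faecal material by gavage every day for 14 days. The donors of the t-DHEA group were injected with 6 mg dehydroepiandrosterone (DHEA, an androgen precursor) per 100 g body weight daily for 35 days, of which the last 14 were those of the transfer, and the donors of the t-PBS group with phosphate buffered saline. The faecal pellets of the donors were pooled, so the recipients of a group do not stand for separate donors. The comparison asks whether the DHEA-shaped microbiota changed expression in the liver of recipients that were not injected with DHEA themselves.

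Matrix metalloproteinases and ADAMTS enzymes are zinc proteases that are made as inactive precursors and cut collagens, proteoglycans and other matrix proteins once their propeptide is removed. TIMPs are small secreted proteins that occupy the active site of these enzymes, and the balance between the families sets how fast matrix is renewed. In liver, stellate cells and other cells of the connective tissue are known as a main source of TIMPs and of Mmp2, and TIMP1 is a well-known serum marker of fibrosis.

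Between 12348511 and 14316886 counts per liver fell on genes, and the 2 groups overlapped in depth. Albumin and 7 other hepatocyte genes summed to between 169709 and 197306 CPM (counts scaled to library size) in each liver, and the ranges of the 2 groups overlapped. All 10 members passed the filter for low counts that left 12210 genes for testing. A gene was called where edgeR's quasi-likelihood test gave a p below 0.05 before adjustment together with a fold-change over 1.2, the thresholds of the study. By this rule 4.95% of all genes tested were called, 2.98% lower and 1.97% higher in t-DHEA livers. These were 364 and 240 genes, and limma on log2(FPKM + 0.1) called 448 lower and 165 higher. With Benjamini-Hochberg adjustment this edgeR test left 0 genes below 0.05, while 634 genes, or 5.19%, were below 0.05 before adjustment. After adjustment 28 genes passed in edgeR's likelihood-ratio test and 24 in DESeq2, with 0 of the 10 members among them in either.

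The 3 inhibitors were lower in t-DHEA livers and most of the proteases among the 10 members were not. Of the 10 members, 5 were called, against 4.95% of all genes. The members were chosen with earlier results of these data known, so this share is a description without a test. Timp1, Timp2, Timp3 and Mmp2 fell and Adamts5 rose. Leaving out rat 2 of either group reduced the number called to 2, leaving out rat 1 of either group or rat 3 of the t-DHEA group reduced it to 3, and it was 4 when rat 3 of the t-PBS group was omitted. DESeq2 called 2 of the 10. Mmp14, Mmp15, Mmp19, Adamts1 and Adamts7 did not pass the test. The median log2 fold change of the 10 was -0.014, against 0.0013 over all genes tested. After Benjamini-Hochberg adjustment over all genes, the edgeR p of the 10 members ran from 0.796 to 0.990.

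**Figure D1:**
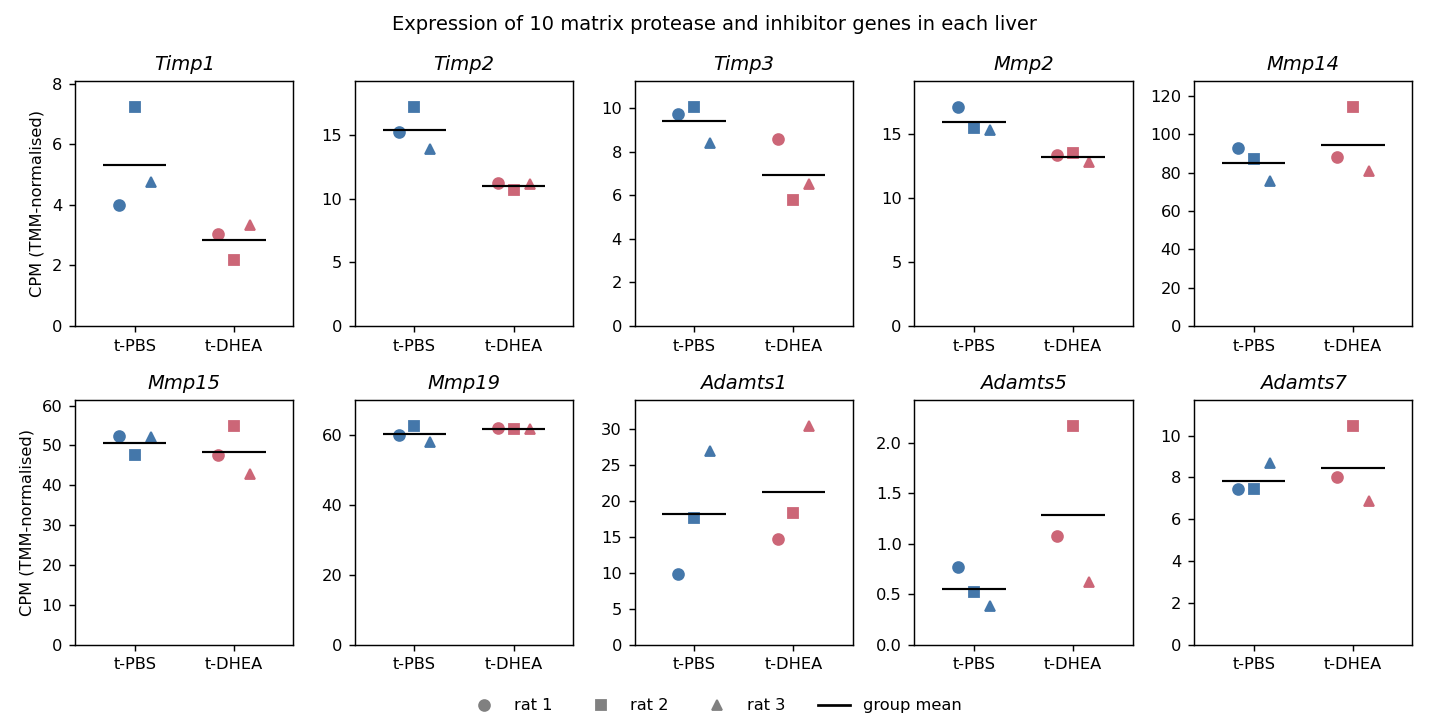
Expression of the 10 genes in each liver, in CPM (counts scaled to library size with TMM factors), with 1 panel per gene and axes from 0; symbols mark the rat number and lines the group means (n = 3 per group). The t-DHEA livers lie below the t-PBS livers without overlap for Timp1, Timp2 and Mmp2, and t-DHEA rat 2 is the highest liver for Mmp14, Mmp15, Adamts5 and Adamts7.

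Timp1 lies on chromosome X of Rnor_6.0 from 1364786 to 1369384 and encodes the soluble inhibitor that is induced in injured liver. It was expressed at 3.995, 7.23 and 4.76 CPM in t-PBS rats 1, 2 and 3, from 57, 98 and 63 counts. In t-DHEA rats 1, 2 and 3 it was expressed at 3.06, 2.17 and 3.32 CPM, from 37, 29 and 43 counts. Every t-DHEA liver was below every t-PBS liver, with t-PBS rat 2 the highest and t-DHEA rat 2 the lowest. The mean was 5.33 ± 1.69 CPM (SD, n = 3) in t-PBS and 2.85 ± 0.603 CPM (SD, n = 3) in t-DHEA livers. Timp1 changed by -0.90 on the log2 scale (SE 0.28, edgeR unadjusted p = 0.0102, adjusted p = 0.838), which placed the t-DHEA level at 53.5% of the t-PBS level with an interval of the fold from 0.346 to 0.827. Timp1 was called with each liver left out in turn, with log2 changes of -0.62 when t-PBS rat 2 and -0.73 when t-DHEA rat 2 was omitted. Without both of these livers it was -0.45 and the call was lost (edgeR unadjusted p = 0.118).

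Timp2, on chromosome 10 from 107338465 to 107386072, encodes the inhibitor that also takes part in the activation of pro-MMP2 at the cell surface. It was expressed at 15.2, 17.2 and 13.9 CPM in t-PBS rats 1, 2 and 3, and at 11.2, 10.7 and 11.1 CPM in t-DHEA rats 1, 2 and 3. The t-DHEA livers lay close together and all below the lowest t-PBS liver. Timp2 changed by -0.49 on the log2 scale (SE 0.12, edgeR unadjusted p = 0.00329, adjusted p = 0.796), the lowest p of the 10 members. The level in t-DHEA livers was 71.4% of that in t-PBS livers. Timp2 was called in each of 15 other fits at the same thresholds, with log2 fold changes from -0.56 to -0.38.

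Timp3, on chromosome 7 from 23544215 to 23594133, encodes the inhibitor that stays bound to the matrix and that blocks ADAM17 and the aggrecan-cutting ADAMTS enzymes. It was expressed at 9.74, 10.03 and 8.38 CPM in t-PBS rats 1, 2 and 3, and at 8.59, 5.76 and 6.49 CPM in t-DHEA rats 1, 2 and 3. The groups overlapped, since t-DHEA rat 1 was above t-PBS rat 3. Timp3 changed by -0.44 on the log2 scale (SE 0.18, edgeR unadjusted p = 0.0359, adjusted p = 0.957). The call was lost without t-PBS rat 1, t-PBS rat 2, t-DHEA rat 2 or t-DHEA rat 3, with log2 fold changes of -0.41, -0.38, -0.32 and -0.39, and also in DESeq2.

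Some TIMP genes lie inside synapsin genes, and the table's coordinates showed this for 2 of the members. Timp1 lay within Syn1, on chromosome X from 1321315 to 1379198, and Timp3 lay within Syn3, on chromosome 7 from 23403891 to 23808602. In RefSeq the starts of Timp1 and Syn1 are on opposite strands. Since the strandedness of the libraries is not given in the sources used here, reads of a gene and of its host cannot be told apart with certainty. Syn1 had 16 counts over the t-PBS and 8 over the t-DHEA livers, against 218 and 109 for Timp1. Syn3 had 11 and 18 counts, against 386 and 265 for Timp3. The gene Cep295nl overlaps Timp2 and had 1 count in all. Timp4, the remaining member of the inhibitor family, had 0, 0 and 0 counts in t-PBS and 1, 0 and 1 in t-DHEA livers, and a count of 0 allows up to 0.210 to 0.230 CPM in the 4 livers concerned (3 counts, counting error only). The sum of the inhibitors in these livers was thus that of Timp1, Timp2 and Timp3.

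The promoters of the 3 inhibitors are shown because these genes moved in 1 direction together. They are the 250 bases before the RefSeq start in build GRCr8, 5′ to 3′ on the strand of the gene, and are given from chrX:3771123-3771372 for Timp1, chr10:104089215-104089464 for Timp2 and chr7:19459559-19459808 for Timp3, all on the minus strand. Capitals mark matches, on either strand, to the motifs searched.
Timp1: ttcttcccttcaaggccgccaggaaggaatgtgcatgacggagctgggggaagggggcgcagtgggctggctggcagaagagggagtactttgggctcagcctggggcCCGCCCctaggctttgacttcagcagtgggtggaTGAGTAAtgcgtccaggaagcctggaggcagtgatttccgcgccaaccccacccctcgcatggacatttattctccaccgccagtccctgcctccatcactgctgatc
Timp2: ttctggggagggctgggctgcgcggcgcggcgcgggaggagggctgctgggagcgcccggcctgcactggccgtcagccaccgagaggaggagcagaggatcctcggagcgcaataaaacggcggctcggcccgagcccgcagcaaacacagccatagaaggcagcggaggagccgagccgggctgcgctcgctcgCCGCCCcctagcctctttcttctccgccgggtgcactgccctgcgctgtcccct
Timp3: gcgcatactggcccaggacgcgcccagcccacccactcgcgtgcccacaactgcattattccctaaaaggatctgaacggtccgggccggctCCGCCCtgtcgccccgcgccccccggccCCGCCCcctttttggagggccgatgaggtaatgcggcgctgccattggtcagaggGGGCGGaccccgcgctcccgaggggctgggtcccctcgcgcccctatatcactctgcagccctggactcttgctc
The motifs were AP-1 (TGANTCA), an AP-1 variant (TGAGTAA), the GC box (GGGCGG), the TATA box (TATAAA), the E-box (CACGTG) and a STAT motif (TTCNNNGAA). The AP-1 variant was found in Timp1, from 108 to 102 bases before the start, and 2.38% of the 33465 rat promoters of the same length hold it. A GC box was found once in Timp1, once in Timp2 and 3 times in Timp3, and 30.5% of all promoters hold at least 1. Mmp15 and Adamts1, which did not pass the test, also hold it, so that it was present in 5 of the 6 members with a promoter in the RefSeq table. Its letters appear as CCGCCC where it lies on the other strand. None of these matches overlapped, and the other motifs were not found in the 3 windows. The G and C content was 61.2% for Timp1, 72.0% for Timp2 and 69.6% for Timp3, against a median of 51.2% over all promoters. The number of CpG pairs was 9, 27 and 23 in the same order, against a median of 5. A match of these letters is a description and not a site of binding.

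Mmp2 encodes gelatinase A, a secreted enzyme that cuts basement membrane collagen, and was the protease that fell together with the inhibitors. It lies on chromosome 19 from 15542765 to 15570611. It was expressed at 17.1, 15.5 and 15.3 CPM in t-PBS rats 1, 2 and 3, and at 13.4, 13.5 and 12.8 CPM in t-DHEA rats 1, 2 and 3. The groups did not overlap, and the spread within each of them was small. Mmp2 changed by -0.27 on the log2 scale (SE 0.11, edgeR unadjusted p = 0.0334, adjusted p = 0.957). The fold of 1.21 between t-PBS and t-DHEA lay at the threshold of 1.2. The call of Mmp2 was kept without t-PBS rat 3 and lost when any of the other 5 livers was left out, with log2 fold changes from -0.29 to -0.22 in those fits, and it was lost in DESeq2 and in edgeR's likelihood-ratio test.

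Groups that did not overlap were seen for Timp1, Timp2 and Mmp2, with the t-DHEA livers lower in each case, whereas 5.42% of all genes tested had every t-DHEA liver below every t-PBS liver. No member had every t-DHEA liver above every t-PBS liver, against 4.66% of all genes tested. With 3 livers against 3, an exact permutation test of a single gene cannot give a two-sided p below 0.1.

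Mmp14 and Mmp15 encode membrane-anchored metalloproteinases, and MMP14 is the main activator of pro-MMP2 at the cell surface. Mmp14 was expressed at 92.8, 86.9 and 75.8 CPM in t-PBS rats 1, 2 and 3, and at 88.3, 114 and 80.9 CPM in t-DHEA rats 1, 2 and 3. The groups overlapped and t-DHEA rat 2 stood above the other 5 livers. The fitted difference of Mmp14 was 0.15 on the log2 scale, with an interval from -0.17 to 0.47 (edgeR unadjusted p = 0.319, adjusted p = 0.986), and it was -0.0065 without t-DHEA rat 2. Mmp15 was expressed at between 47.6 and 52.4 CPM in t-PBS and between 42.7 and 54.9 CPM in t-DHEA livers. Its log2 fold change was -0.066 with an interval from -0.32 to 0.19, and it was 0.022 without t-DHEA rat 3.

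Mmp19, a secreted protease of basement membrane proteins, varied least among the members. It was expressed at 59.9, 62.5 and 57.9 CPM in t-PBS rats 1, 2 and 3, and at 62.01, 61.6 and 61.6 CPM in t-DHEA rats 1, 2 and 3. The fitted difference of Mmp19 was 0.038 on the log2 scale, with an interval from -0.15 to 0.23 (edgeR unadjusted p = 0.657, adjusted p = 0.990). A fall as large as that fitted for Timp1, Timp2 or Timp3 lay outside the intervals of Mmp15 and Mmp19.

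Adamts5 encodes an aggrecan-cutting enzyme and was the member that rose. It lies on chromosome 11 from 25410975 to 25456836 and was read from few fragments, with 11, 7 and 5 counts in t-PBS and 13, 29 and 8 counts in t-DHEA rats 1, 2 and 3. These were 0.771, 0.516 and 0.377 CPM in the t-PBS and 1.07, 2.17 and 0.618 CPM in the t-DHEA livers. The groups overlapped, and t-DHEA rat 2 gave 29 of the 50 counts of its group. Adamts5 changed by 1.199 on the log2 scale (SE 0.53, edgeR unadjusted p = 0.0492, adjusted p = 0.957), with an interval from 0.0052 to 2.39. The call was lost without t-PBS rat 2, t-PBS rat 3, t-DHEA rat 1 or t-DHEA rat 2, and the log2 change was 0.59 in the fit that omitted t-DHEA rat 2.

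Adamts1, an induced protease of versican and aggrecan, lies 60001 bases from Adamts5 on the same chromosome. It varied more within the groups than between them, at 9.74, 17.6 and 26.9 CPM in t-PBS rats 1, 2 and 3 and at 14.7, 18.3 and 30.4 CPM in t-DHEA rats 1, 2 and 3. Its log2 fold change of 0.23 had an interval from -0.59 to 1.05, and its sign turned when t-PBS rat 1 (-0.073) or t-DHEA rat 3 (-0.12) was omitted. This interval includes a fall as large as that of Timp2 or Timp3, so a change of that size in Adamts1 was not detectable with 3 livers per group. Adamts7, which cuts cartilage oligomeric matrix protein, was expressed at between 7.43 and 8.68 CPM in t-PBS and between 6.88 and 10.5 CPM in t-DHEA livers. Its log2 fold change was 0.11 with an interval from -0.30 to 0.52, and it was -0.075 without t-DHEA rat 2.

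**Figure D2:**
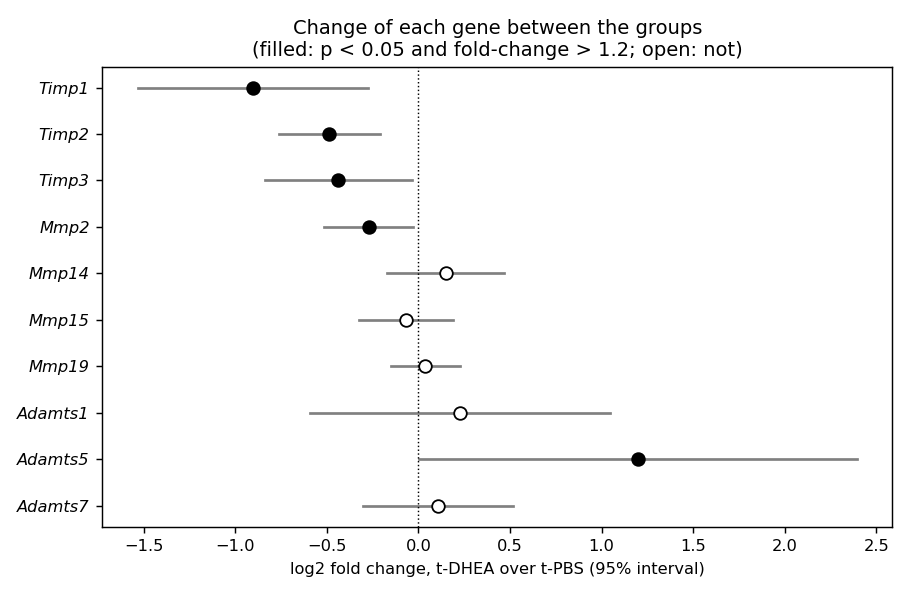
Log2 fold change of each gene in t-DHEA over t-PBS livers (points) with the 95% interval from edgeR's quasi-likelihood fit (lines); filled points passed a p below 0.05 before adjustment with a fold-change over 1.2, open points did not. Timp1, Timp2, Timp3 and Mmp2 lie below 0, and the interval of Adamts5 reaches from 0.0052 to 2.39.

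Levels were compared between genes as FPKM, which takes the length of each gene into account. In t-PBS livers the order by mean FPKM was Mmp14 at 35.4 ± 3.72 (SD, n = 3), Mmp19 at 30.4 ± 1.86 (SD, n = 3), Mmp15 at 12.8 ± 0.388 (SD, n = 3) and Timp2 at 9.42 ± 1.23 (SD, n = 3). Timp1 came next at 7.32 ± 2.51 FPKM (SD, n = 3), followed by Timp3 at 5.44, Mmp2 at 5.26, Adamts1 at 4.17, Adamts7 at 1.05 and Adamts5 at 0.176 FPKM. The ranges over the 3 t-PBS livers overlapped between Mmp14 and Mmp19, and between each pair of neighbours from Timp2 down to Adamts1. In t-DHEA livers Timp1, at 3.80 ± 0.803 FPKM (SD, n = 3), came after Timp2 at 6.54, Adamts1 at 4.75, Mmp2 at 4.25 and Timp3 at 3.92 FPKM. The most abundant proteases of this set were genes that did not pass the test, and the fall concerned genes of middle abundance.

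The summed level of the 3 inhibitors was 20.1, 26.9 and 19.6 FPKM in t-PBS rats 1, 2 and 3, and 15.5, 12.5 and 14.7 FPKM in t-DHEA rats 1, 2 and 3. Every t-DHEA liver was below every t-PBS liver. The summed level of the 4 metalloproteinases was 86.3, 87.2 and 78.0 FPKM in the t-PBS and 81.8, 94.5 and 77.9 FPKM in the t-DHEA livers, and the groups overlapped. For each 100 FPKM of these metalloproteinases there were 23.3, 30.9 and 25.1 FPKM of inhibitors in t-PBS rats 1, 2 and 3, and 18.9, 13.2 and 18.9 FPKM in t-DHEA rats 1, 2 and 3. The means of this ratio were 26.4 ± 3.97 (SD, n = 3) and 17.0 ± 3.28 (SD, n = 3). These sums are a description without a test, because the genes were chosen with results of these livers known. The ratio is one of RNA levels, and the amounts and activity of the proteins were not measured. For each 100 FPKM of Mmp2 there were 164, 205 and 168 FPKM of Timp2 in t-PBS and 155, 146 and 160 FPKM in t-DHEA livers, so that Timp2 exceeded Mmp2 in every liver.

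**Figure D3:**
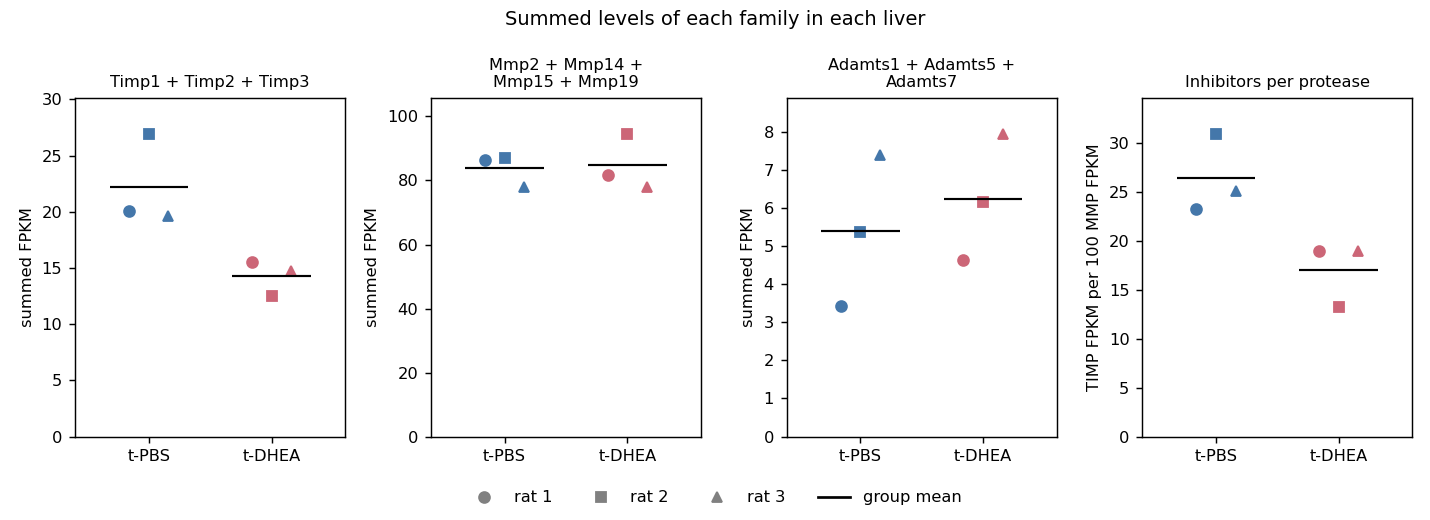
Summed FPKM of the 3 inhibitors, the 4 metalloproteinases and the 3 ADAMTS genes in each liver, and the inhibitor sum per 100 FPKM of metalloproteinases; symbols mark the rat number, lines the group means (n = 3 per group), and all axes start at 0. The inhibitor sum and the ratio separate the groups, with ratios from 23.3 to 30.9 in t-PBS and from 13.2 to 18.9 in t-DHEA livers, whereas the protease sums overlap.

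The other genes of matrix turnover were described with 9 lists of 91 genes, of which 89 were in the table and 54 were tested. Of these 54, 13 or 24.1% were called, 11 lower and 2 higher in t-DHEA livers, against 4.95% of all genes. Their median log2 fold change was -0.13, against 0.0013 over all genes tested, and 38 of the 54 were below 0, against 49.6% of all genes. None of the 54 passed after Benjamini-Hochberg adjustment in either edgeR test or in DESeq2, so the 13 calls rest on p before adjustment. The lists were chosen with earlier results of these data known, so the share of 24.1% is a description without a test. Of the 13, 3 were called with each liver left out in turn, namely Adamts9, Adamts12 and Tgfb1.

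All 6 other ADAMTS genes tested and all 4 other metalloproteinases tested had log2 fold changes below 0. The 15 other ADAMTS genes in the table summed to between 62.6 and 83.5 CPM in t-PBS and between 48.9 and 61.8 CPM in t-DHEA livers. The 17 other metalloproteinases summed to between 10.2 and 11.2 CPM in t-PBS and between 6.58 and 8.42 CPM in t-DHEA livers. Unlike the sums of the member proteases, neither of these overlapped between the groups, whereas the sums of the 9 ADAM genes did. Adamts9, a protease of versican, was expressed at 10.8, 18.1 and 12.4 CPM in t-PBS rats 1, 2 and 3 and at 8.67, 5.09 and 7.88 CPM in t-DHEA rats 1, 2 and 3. Its groups did not overlap, and it changed by -0.93 on the log2 scale (edgeR unadjusted p = 0.00447, adjusted p = 0.801). Adamts12 fell by 0.41 on the log2 scale. Adamts2, which removes the amino-terminal propeptide of procollagens, fell by 0.67, and by 1.05 without t-DHEA rat 1, but lost its call without t-PBS rat 2, t-PBS rat 3, t-DHEA rat 2 or t-DHEA rat 3. Mmp23, a membrane-bound metalloproteinase, fell by 1.06 on the log2 scale, from 83 counts over the t-PBS to 37 over the t-DHEA livers, a call that was lost without t-DHEA rat 2. Mmp16 and Mmp9 had log2 fold changes of -0.32 and -0.93 and were not called, the latter with 35 against 17 counts.

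None of the 6 ADAM proteases tested was called by edgeR's quasi-likelihood test. Adam17, the sheddase that TIMP3 inhibits, was expressed at 32.7 CPM in t-PBS and 31.4 CPM in t-DHEA livers. Adam19, Adam12 and Adam15 had the lowest p of this list, with log2 fold changes of -0.40, 0.69 and -0.14. Of the inhibitors outside the TIMP family, Reck, a membrane-anchored inhibitor of metalloproteinases, and Tfpi2 had log2 fold changes of 0.12 and 0.40 and were not called. A2m, which encodes the plasma protease trap alpha-2-macroglobulin, was listed at 0 in all 6 livers. Col1a2, the partner chain of Col1a1, and Tgfbr1 were listed at 0 as well, although Col1a1 and Tgfbr2 were well counted, so a gene listed at 0 in this table is not shown to be absent.

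In the plasmin system, which activates several metalloproteinases, none of 6 genes was called. Plat and Plau, the plasminogen activators, had log2 fold changes of -0.59 and -0.23. Of the proprotein convertases, which release many proteases from their propeptide, Pcsk5 fell by 0.31 and kept its call without t-PBS rat 1 but not when any of the other 5 livers was left out, while Furin and Pcsk7 were not called, with 0.036 and -0.12. Among receptors of TIMPs and metalloproteinases none of 4 was called, and Cd63, Lrp1 and Itga3 had log2 fold changes of -0.29, 0.26 and -0.33.

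Of the 10 matrix substrates tested, 4 fell and none rose. Col1a1 and Col3a1, chains of the fibrillar collagens, fell by 0.88 and 0.40, and the proteoglycans Lum and Bgn fell by 1.08 and 0.27. Without t-PBS rat 2 none of the 4 was called, and Col1a1 was at -0.58. The call of Col3a1 was also lost without t-DHEA rat 2, that of Lum without t-DHEA rat 3, and that of Bgn without t-PBS rat 3, t-DHEA rat 1 or t-DHEA rat 2. Among 12 tested genes of signals known to induce Timp1, the growth factor genes Tgfb1 and Tgfb3 fell by 0.51 and 0.53, and the receptor genes Lifr and Osmr rose by 1.04 and 0.71. Tgfb1 was expressed at 12.7, 12.4 and 12.3 CPM in the t-PBS and at 8.17, 8.08 and 10.04 CPM in the t-DHEA livers, without overlap. The groups of Lifr and Osmr overlapped, and neither was called when t-PBS rat 3 or t-DHEA rat 1 was omitted. Osmr was also not called without t-DHEA rat 2, at 0.43 on the log2 scale. Tgfb3 was called without t-DHEA rat 3 but not when any of the other 5 livers was left out.

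**Figure D4:**
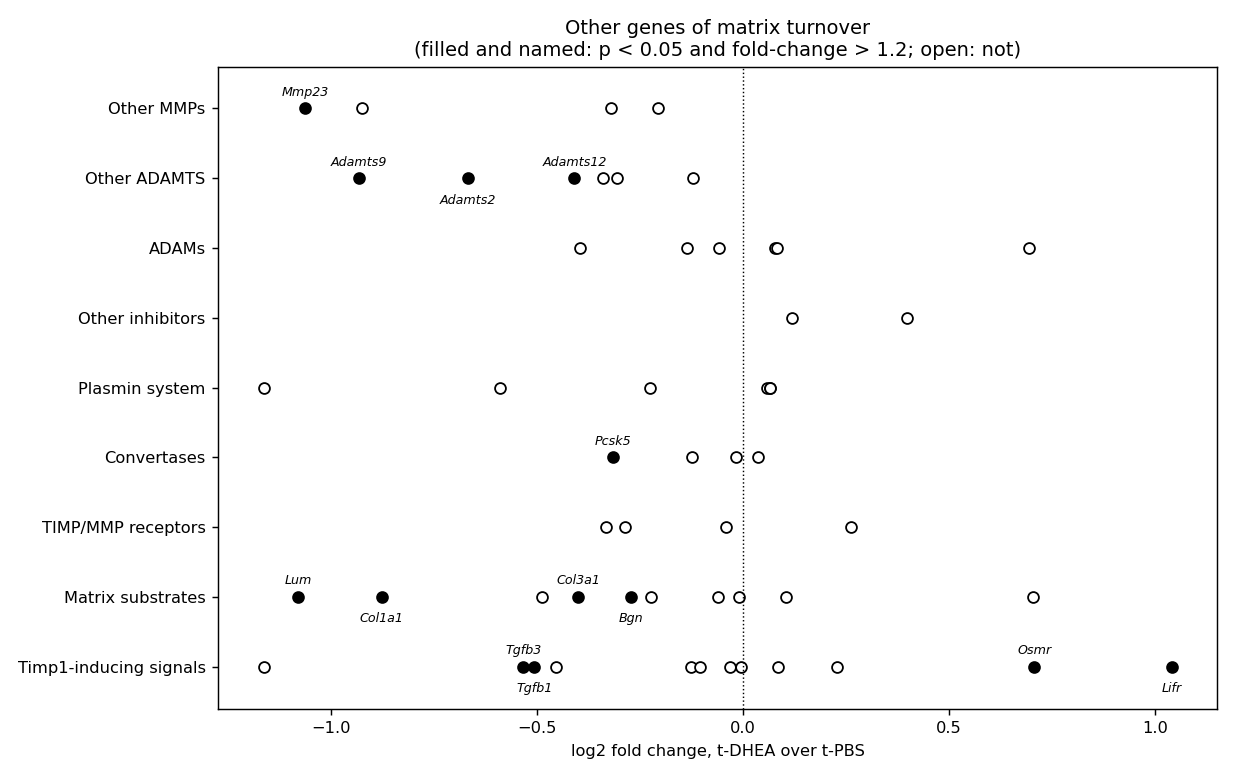
Log2 fold change in t-DHEA over t-PBS livers of the 54 tested genes of 9 lists around the matrix proteases, 1 row per list and 1 point per gene; filled and named points passed a p below 0.05 before adjustment with a fold-change over 1.2 in edgeR's quasi-likelihood test. Of the 13 filled points, 11 lie below 0 and 2, Lifr and Osmr, above it.

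For each called member the 3 genes with the most similar profile were found among 11785 genes with a mean of at least 1 CPM, as the smallest root-mean-square difference of centred log2 CPM over the 6 livers. Adamts9 was nearest to Timp1, at 0.101, followed by Cav1, the gene of caveolin-1, at 0.136 and Dcbld2 at 0.139. Adamts12 was nearest to Timp2, at 0.0507, followed by Psmd11 and Kdelc2. The genes nearest to Timp3 were Rasa2, Rbm33 and Tpm4, and those nearest to Mmp2 were Ccdc28a, Ptpn12 and Rara. For Adamts5 they were RGD1562161, Osmr and Lifr, at larger distances of 0.227, 0.239 and 0.256. These lists describe 6 livers and come without a test.

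Markers of other cell types differed between the groups as well. In bulk tissue, fewer cells of a type and less RNA per cell cannot be told apart. Of 8 genes of the mesothelium, the cell layer that covers the liver, 6 were tested and all 6 had log2 fold changes below 0, with a median of -1.80. Msln, Upk3b, Upk1b and Muc16 were called, all lower, but Upk1b was not called when t-PBS rat 3, t-DHEA rat 1 or t-DHEA rat 2 was omitted, and was at -3.32 on the log2 scale in the fit omitting t-DHEA rat 3. The summed level of the 8 genes was 35.4, 37.8 and 37.2 CPM in t-PBS rats 1, 2 and 3, and 18.9, 1.87 and 28.7 CPM in t-DHEA rats 1, 2 and 3. Gpm6a went against the others, at 12.7 and 15.9 CPM in t-DHEA rats 1 and 3 against 10.3 to 10.8 CPM in t-PBS livers. The sum of the other 7 genes was 25.0, 27.5 and 26.4 CPM in t-PBS rats 1, 2 and 3, and 6.19, 1.72 and 12.7 CPM in t-DHEA rats 1, 2 and 3. In t-DHEA rat 2 Wt1, Lrrn4 and Bnc1 were at 0 counts and Gpm6a at 2, while Bnc1 was at 0 in t-PBS rat 3 as well. The order of the 6 livers by this sum, with or without Gpm6a, was the same as their order by Timp1, a likeness seen after the values were known. Of 7 bile duct genes 4 were tested, and Krt7 and Krt19 were called, both lower, while the call of Krt7 was lost when t-PBS rat 3 or t-DHEA rat 1 was omitted and its log2 change was -4.28 in the fit omitting t-DHEA rat 3. The sum of the 7 genes ran from 18.8 to 23.0 CPM in t-PBS and from 9.28 to 16.1 CPM in t-DHEA livers. Sox9 and Epcam, also tested, were not called, with log2 fold changes of -0.68 and -0.25 and groups that overlapped. Epcam, the largest part of the sum, was at 8.53 to 10.5 CPM in t-PBS and 6.51 to 10.6 CPM in t-DHEA livers. Krt19 was at 4.35, 8.11 and 4.91 CPM in t-PBS rats 1, 2 and 3, and at 2.64, 1.42 and 2.94 CPM in t-DHEA rats 1, 2 and 3. By itself Krt19 also put the 6 livers in the order of Timp1. Which cell type the Krt19 RNA came from was not tested.

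Of 10 stellate cell genes, Pdgfra was called, with a log2 fold change of -0.37 and a call that was lost on omitting t-PBS rat 3, t-DHEA rat 2 or t-DHEA rat 3, and the median of the list was -0.15. Their summed level ran from 429 to 479 CPM in t-PBS and from 378 to 425 CPM in t-DHEA livers, without overlap. By itself, however, none of the 10 genes separated the groups. Ecm1 was the largest part of the sum, at 147 to 183 CPM in t-PBS and 139 to 171 CPM in t-DHEA livers. Of the 10 genes, 8 had log2 fold changes below 0. Lrat, which marks resting stellate cells, was 1 of the 2 above 0, at 50.8 CPM in t-PBS and 52.3 CPM in t-DHEA livers. None of 7 Kupffer cell genes was called. Of the 6 endothelial genes tested, Kdr was called, higher in t-DHEA livers, a call that was lost on omitting t-PBS rat 1 (0.22 on the log2 scale), t-DHEA rat 1 or t-DHEA rat 2, and the sums of the endothelial list overlapped between the groups. Of the smooth muscle genes, Tagln was called, higher, and the summed level of the 4 genes ran from 18.3 to 24.8 CPM in t-PBS and from 27.3 to 40.2 CPM in t-DHEA livers. This gap rested on Tagln, since the sum of the other 3 genes was 8.45 to 12.2 CPM in t-PBS and 5.72 to 17.0 CPM in t-DHEA livers and overlapped. Of 5 red cell genes 3 were called, all of them globin genes and all higher. The sum of the 5 was 245 to 382 CPM in t-PBS and 408 to 812 CPM in t-DHEA livers, most of it from globin genes. Slc4a1 and Alas2 were not called, with log2 fold changes of -0.11 and 0.38 and groups that overlapped. Of 13 clock genes, 5 were called, Per2, Per3, Dbp and Tef higher and Arntl lower. Dbp kept its call on omitting t-PBS rat 3 or t-DHEA rat 2 but not any of the other 4 livers, and Per2 was at 0.53 on the log2 scale in the fit omitting t-DHEA rat 1. The part of these genes and cell types in the changes of the TIMPs and proteases was not tested. Log2 changes in the fit without t-DHEA rat 2 were -0.73 for Timp1, -0.46 for Timp2, -0.32 for Timp3 and -0.28 for Mmp2. Timp1 and Timp2 kept their calls in that fit. It does not remove the mesothelial difference, since t-DHEA rats 1 and 3 were also below every t-PBS liver in the mesothelial sum.

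**Figure D5:**
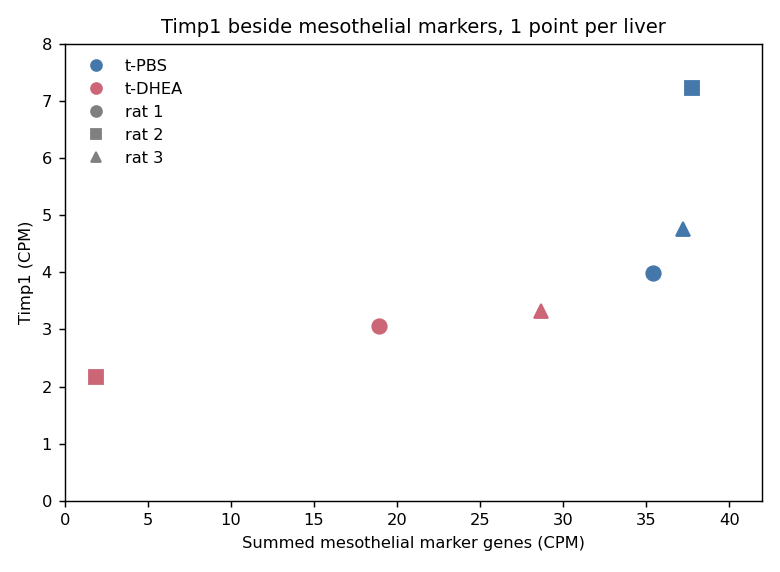
Timp1 (CPM, vertical axis) beside the summed level of 8 mesothelial marker genes (CPM, horizontal axis), 1 point per liver, with colour for the group and symbol for the rat number. The 3 t-PBS livers lie at 35.4 to 37.8 CPM of marker genes and the 3 t-DHEA livers at 1.87 to 28.7 CPM. The livers have the same order on both axes, an order that Krt19, of the bile duct list, also gave.

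The liver of t-DHEA rat 2 stood at an end of the range for most members. It was the lowest of the 6 livers for Timp1, Timp2 and Timp3 and the highest for Mmp14, Mmp15, Adamts5 and Adamts7, while for Mmp2, Mmp19 and Adamts1 it lay within the range of the other livers. Its inhibitor sum per 100 FPKM of metalloproteinases, 13.2, was the lowest, and the other t-DHEA livers, at 18.9 each, were also below the lowest t-PBS liver at 23.3.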

How the data were processed

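Liver RNA of 3 t-PBS and 3 t-DHEA rats was sequenced from paired-end TruSeq libraries. The authors filtered the reads with Seqtk, mapped them to Rnor_6.0 with HISAT2 2.0.4 and counted fragments with StringTie 1.3.0 (versions also in the submitters' processing notes). They deposited raw counts per gene and FPKM values made from them. The annotation release and strandedness are not given in the sources used here. Groups and rat numbers came from the labels. No 2 libraries were alike within sampling noise (lowest chi-square over its degrees of freedom, 15.3).

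Counts were tested with edgeR 4.0.16 in R 4.3.3 (TMM factors, default filter, quasi-likelihood test, no block or covariate). The study ran edgeR on FPKM values, to which a count model was not fitted here. Intervals are 95% intervals of the log2 fold change, with standard errors from the test statistic. CPM used TMM-scaled library sizes. FPKM served to compare genes. A zero count allowed 0.210 to 0.243 CPM.

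The members, gene lists and motifs were chosen with earlier results of these data known. Of 173 list entries, 170 matched. Named were the members, the called genes and up to 3 genes with the lowest p of each list, the 3 nearest profiles of each called member, overlapping genes and called markers. Others named were chosen after their values were seen. One listed gene is not reported here. Alternatives were DESeq2 1.42.0, limma 3.58.1 on log2(FPKM + 0.1) or log2(FPKM + 1), other filters, factors and tests, a rat-number block, and livers left out. Leaving out t-PBS rat 2 and t-DHEA rat 2 together, and marker sums without Gpm6a or Tagln, were added after seeing the data. The fits were tested on simulated data.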

Additional observations from a re-analysis of the deposited data

How the results depend on the processing

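Of the 10 genes, 5 were called. The number was 2 with DESeq2, 3 with limma on log2(FPKM + 1), 2 at a fold-change above 1.5, from 2 to 4 with each liver left out in turn, and 1 (Timp2) without t-PBS rat 2 and t-DHEA rat 2 together, where fewer livers were compared. At a fold-change above 1.5 the other genes of matrix turnover called fell in number from 13 to 7 and all genes called from 604 to 275. The direction turned for genes that were not called: with 1 liver left out, log2 changes ran from -0.0065 to 0.25 for Mmp14, from -0.16 to 0.022 for Mmp15, from -0.12 to 0.63 for Adamts1 (-0.073 without t-PBS rat 1) and from -0.075 to 0.24 for Adamts7. With both rats 2 omitted Mmp15 was at -0.21 and Adamts7 at -0.11. The cause was not tested. Over 139 values of the 10 genes in the other settings, that without both rats 2 not counted, 112 kept their direction and side of the threshold, 22 lost the call and 5 turned. The limma fits on FPKM gave a log2 fold change of 0.76 for Adamts5 at a pseudocount of 0.1 and 0.24 at 1.

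With the rat number as a block, 4 of the 10 genes were called, and Mmp2 was not, at an unadjusted p of 0.0531. The block gave 14 calls among the other genes of matrix turnover and 539 among all genes. Rats with the same number did not deviate from their group means together, with correlations from -0.059 to -0.055 across genes, so the numbers were not taken as pairs. Depth limited Adamts5, with 73 counts in all, and genes below the filter.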

Other observations

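Some proteases below the filter for low counts differed between the groups in counts, and were singled out after their values were seen. Adam8, a protease of activated leukocytes, had 17, 11 and 10 counts in t-PBS rats 1, 2 and 3 and 3, 3 and 1 counts in t-DHEA rats 1, 2 and 3, so that every t-DHEA liver was below every t-PBS liver. Adam33 had 29 counts over the t-PBS and 8 over the t-DHEA livers, and its groups overlapped. Mmp12, the macrophage elastase, had 11 counts over the t-PBS livers, of which 9 came from t-PBS rat 1, and 1 count over the t-DHEA livers. Mmp3, a stromelysin, had 6 and 1 counts. Higher totals in t-DHEA livers were seen for Mmp8, a neutrophil collagenase, with 6 and 10 counts, Adamts6 with 6 and 12 and Adamts19 with 10 and 13. Mmp1, Mmp10, Mmp11, Mmp13, Mmp20, Mmp21 and Mmp28 were listed at 0 in all 6 livers, which does not show them to be absent.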
